A study of Mus musculus with 6 samples.

Results

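The 10 genes described here encode the core proteins of mitochondrial fusion (Mfn1, Mfn2, Opa1), mitochondrial fission (Dnm1l, Fis1, Mff) and mitochondrial protein quality control (the proteases Oma1, Yme1l1, Lonp1 and Clpp). They were chosen by symbol, all 10 were found among the 49315 genes of the count tables, and all 10 passed the filter on low counts. The measurements are RNA sequencing counts from gastrocnemius, a calf muscle, of mice aged 3 months on a mixed C57BL/6 and 129 background. There were 3 libraries of WT mice and 3 labelled mKO, from mice with Hnrnpu (a gene for a nuclear RNA-binding protein) knocked out in muscle only. Neither the knockout's driver nor the exons it removes is stated in the sources used here. Replicates carry numbers but no animal names, so the tests weigh differences against library-to-library spread, which may be technical.

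Mitochondria in muscle form a network that is remodelled by joining and dividing. The mitofusins Mfn1 and Mfn2 are GTPases of the outer membrane that join the outer membranes of neighbouring mitochondria, and Opa1, a dynamin-like GTPase, joins the inner membranes and shapes the cristae. The inner-membrane proteases Oma1 and Yme1l1 cut Opa1 from its long, fusion-active form to short forms, and Oma1 does so under stress. Division is carried out by Dnm1l (Drp1), a cytosolic dynamin that is recruited to the outer membrane by receptors such as Mff, while Fis1 is a further outer-membrane protein linked to division. Lonp1 and Clpp degrade damaged or unassembled proteins in the mitochondrial matrix.

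Library totals ranged from 32108684 to 42344238 counts. Hnrnpu had 233, 235 and 247 CPM (counts relative to a library size, here scaled by the TMM method) in WT replicates 1 to 3 and 209, 210 and 205 CPM in mKO replicates 1 to 3 (log2 change -0.20, SE 0.10, edgeR adjusted p = 0.147), but with unscaled library totals the log2 change was 0.27 (adjusted p = 0.0402). A count over all exons does not check a deletion of some of them, so directions are those of the libraries as labelled. TMM factors were 0.845 to 0.859 in WT and 1.15 to 1.20 in mKO libraries. With unscaled totals the median log2 change of all tested genes was 0.49 in place of 0.02, an upward shift of 0.47, and changes are given with TMM scaling unless library totals are named.

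Coordinates are those of the count tables (GRCm38), and all 10 genes are protein-coding. Mfn1 (ENSMUSG00000027668) spans 32529465 to 32579239 on chromosome 3 (plus strand). Mfn2 (ENSMUSG00000029020) spans 147873599 to 147904704 on chromosome 4 (minus strand), and Oma1 (ENSMUSG00000035069) 103313812 to 103371868 on the same chromosome (plus strand). Opa1 (ENSMUSG00000038084, plus strand, 29579334 to 29654884) and Dnm1l (ENSMUSG00000022789, minus strand, 16312235 to 16359030) lie on chromosome 16. Yme1l1 (ENSMUSG00000026775) spans 23156369 to 23199260 on chromosome 2, Fis1 (ENSMUSG00000019054) 136953275 to 136966234 on chromosome 5, and Mff (ENSMUSG00000026150) 82724890 to 82752394 on chromosome 1, all on the plus strand. Lonp1 (ENSMUSG00000041168, minus strand, 56614301 to 56626903) and Clpp (ENSMUSG00000002660, plus strand, 56990264 to 56996371) lie on chromosome 17. Exons of 9 genes overlapped no other listed gene. In Mff, 1121 of 9757 exon bases (11.5%) were shared with C430014B12Rik, which had 84 counts over all libraries against 29381 for Mff.

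The 250 bases before the RefSeq transcription start (GRCm38.p6) are shown for the 2 mitofusins, the pair whose within-library ratio differed most between groups. They are also shown for Fis1 and Opa1. Mfn1, Fis1, Opa1 and Oma1 (not printed) hold a match to a motif of nuclear factors known to act on mitochondrial genes. Capitals mark the match: CCGGAAGT, the letters bound by GABPA (NRF2), in Mfn1 and Fis1, and, in Opa1, GCGCA and GCGC separated by any 1 base, the letters bound by NRF1. RefSeq lists several starts for some genes, 15 windows for the 10 genes in all, with 3 for Mfn2 and 2 for Fis1. For these genes the window nearest the gene start of the count tables is printed. None of the Mfn2 windows and not the second Fis1 window held a match. The Mfn1 window is chr3:32529232-32529481 (plus strand), the Mfn2 window chr4:147904699-147904948 (minus strand), the Fis1 window chr5:136953025-136953274 (plus strand) and the Opa1 window chr16:29579084-29579333 (plus strand).
Mfn1: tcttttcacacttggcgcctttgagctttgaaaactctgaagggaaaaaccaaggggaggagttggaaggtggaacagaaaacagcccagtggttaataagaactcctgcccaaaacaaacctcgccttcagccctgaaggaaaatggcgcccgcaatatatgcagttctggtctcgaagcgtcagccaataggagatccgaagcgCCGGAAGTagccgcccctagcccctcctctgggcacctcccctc
Mfn2: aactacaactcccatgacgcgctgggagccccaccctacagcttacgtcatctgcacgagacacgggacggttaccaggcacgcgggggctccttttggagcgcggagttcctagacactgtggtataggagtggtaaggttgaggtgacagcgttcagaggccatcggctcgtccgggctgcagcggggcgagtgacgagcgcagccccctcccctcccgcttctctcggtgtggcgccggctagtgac
Fis1: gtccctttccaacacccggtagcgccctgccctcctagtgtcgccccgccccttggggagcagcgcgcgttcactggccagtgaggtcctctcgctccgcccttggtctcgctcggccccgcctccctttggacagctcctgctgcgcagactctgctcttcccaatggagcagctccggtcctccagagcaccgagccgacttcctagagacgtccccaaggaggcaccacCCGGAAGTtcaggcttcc
Opa1: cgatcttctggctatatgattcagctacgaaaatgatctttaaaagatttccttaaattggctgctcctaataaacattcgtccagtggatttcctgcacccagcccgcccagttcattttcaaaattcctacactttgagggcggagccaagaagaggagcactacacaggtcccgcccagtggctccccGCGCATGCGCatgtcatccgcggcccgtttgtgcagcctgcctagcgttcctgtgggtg
The match began 44 bases before the start in Mfn1, 18 bases before it in Fis1 and 59 bases before it in Opa1. Over 5 motifs searched on both strands, CCGGAAGT was found in 2 of the 15 windows and in 2.88% of 32851 mouse windows of this length, and the NRF1 letters in 2 of the 15 (Opa1 and Oma1) and in 3.74% of all windows. The windows of the 10 genes held no match to TNAAGGTCA (the oestrogen-related receptor element, 1.14% of windows), TGATGNAA (the amino acid response element bound by ATF4, 3.45%) or TGACGTCA (the cyclic AMP response element, 1.55%). A match is a description of letters, not a measured binding site.

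Transcripts of 7 of the 10 genes were lower in mKO muscle and none was higher, but only Mfn1 also passed with library totals. The 7 were Mfn1, Mfn2, Opa1, Dnm1l, Fis1, Mff and Clpp, and Oma1, Yme1l1 and Lonp1 did not pass the test (edgeR quasi-likelihood test, adjusted p under 0.05 over all genes tested). Among all 16650 genes tested, 37.0% passed, 18.9% lower and 18.2% higher. The median log2 change of the 10 genes was -0.37, against 0.02 over all genes tested. In CPM the WT and mKO libraries did not overlap for 8 of the 10 genes, all lower in mKO, against 4002 of 16650 tested genes (24%) that were lower without overlap. With library totals, 1 of the 10 genes (Mfn1) passed as lower and none as higher, against 6.75% lower and 49.0% higher of all genes. The median log2 change of the 10 genes was then 0.09, against 0.49 over all genes.

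**Figure D1:**
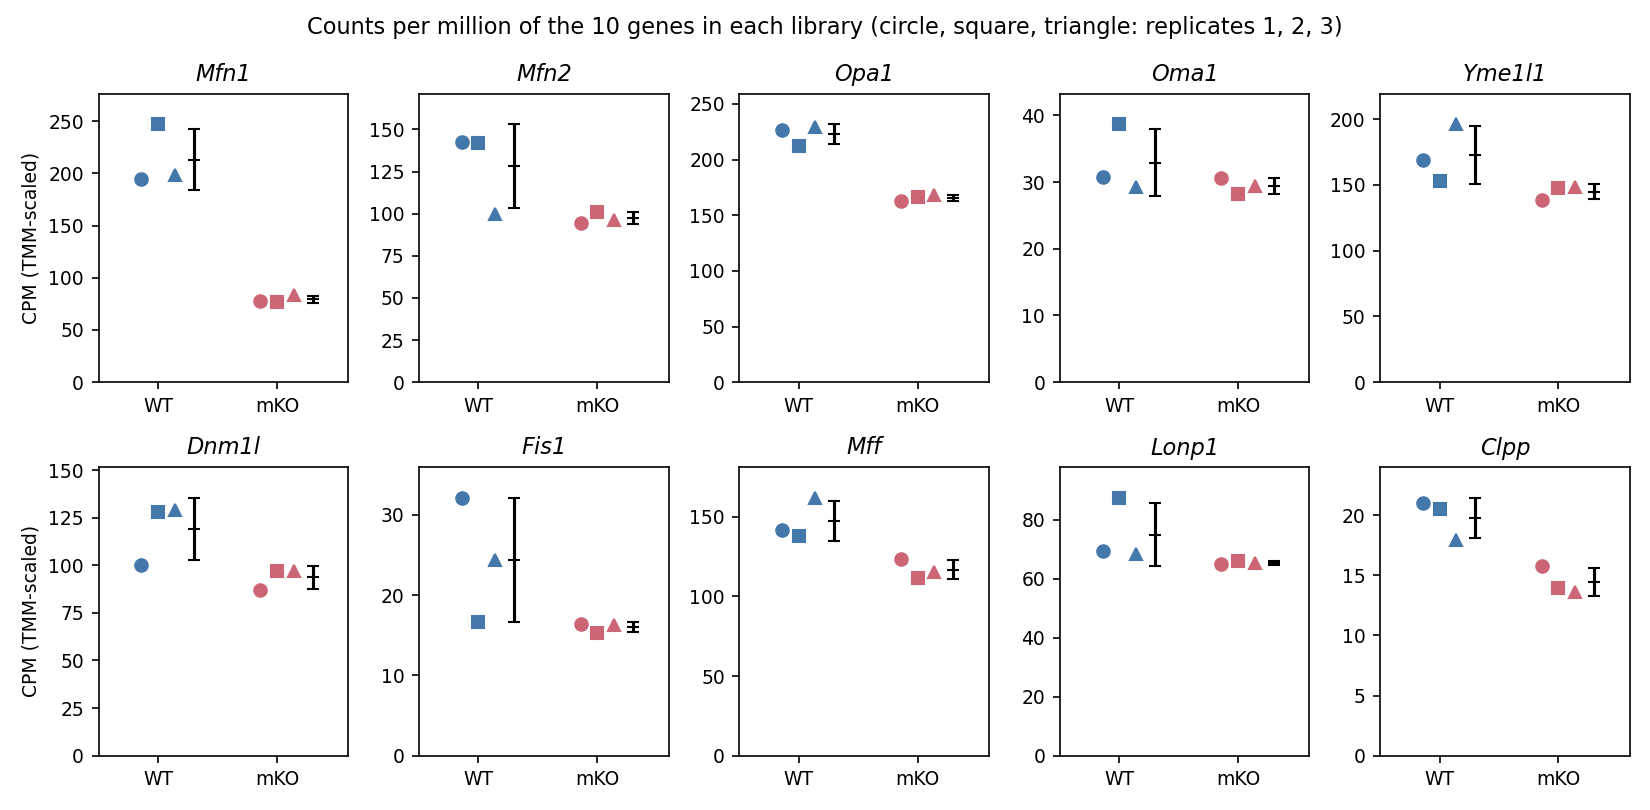
CPM with TMM-scaled library sizes (vertical axes, starting at 0) of the 10 genes in WT and mKO libraries. Symbols are replicates 1, 2 and 3, and the black bar is the mean ± SD of 3 libraries. Mfn1 shows the widest gap, 194 to 247 CPM in WT against 77.1 to 83.4 CPM in mKO, while Mfn2 and Oma1 overlap between groups.

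Mfn1 had the largest change. There were 194, 247 and 198 CPM in WT replicates 1 to 3 and 78.0, 77.1 and 83.4 CPM in mKO replicates 1 to 3. All mKO libraries lay below all WT libraries, so the groups did not overlap. The mean fell from 213 ± 29.3 to 79.5 ± 3.46 CPM (SD, n = 3), to 37.3% of WT (log2 -1.42, SE 0.12, edgeR adjusted p = 3.71e-06). Of all 16650 tested genes, 443 (2.66%) had a lower log2 change. With library totals Mfn1 had 167, 210 and 167 CPM in WT and 93.5, 90.1 and 96.3 CPM in mKO libraries, again without overlap (log2 -0.96), where 8.06% of all genes were lower without overlap. Leaving out any 1 library left the log2 change between -1.49 and -1.31.

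Mfn2, which also tethers mitochondria to the endoplasmic reticulum, had a smaller log2 change. Its libraries held 143, 142 and 99.6 CPM in WT replicates 1 to 3 and 94.7, 101 and 96.3 CPM in mKO replicates 1 to 3. WT replicate 3 lay within the mKO range, so the groups overlapped. The log2 change was -0.40 (SE 0.14, edgeR adjusted p = 0.0401) and turned to 0.07 with library totals (adjusted p = 0.697). It no longer passed on leaving out WT replicate 1 (adjusted p = 0.135), WT replicate 2 (0.0995), mKO replicate 1 (0.107), mKO replicate 2 (0.0707) or mKO replicate 3 (0.117), and with upper-quartile scaling (0.0818).

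**Figure D2:**
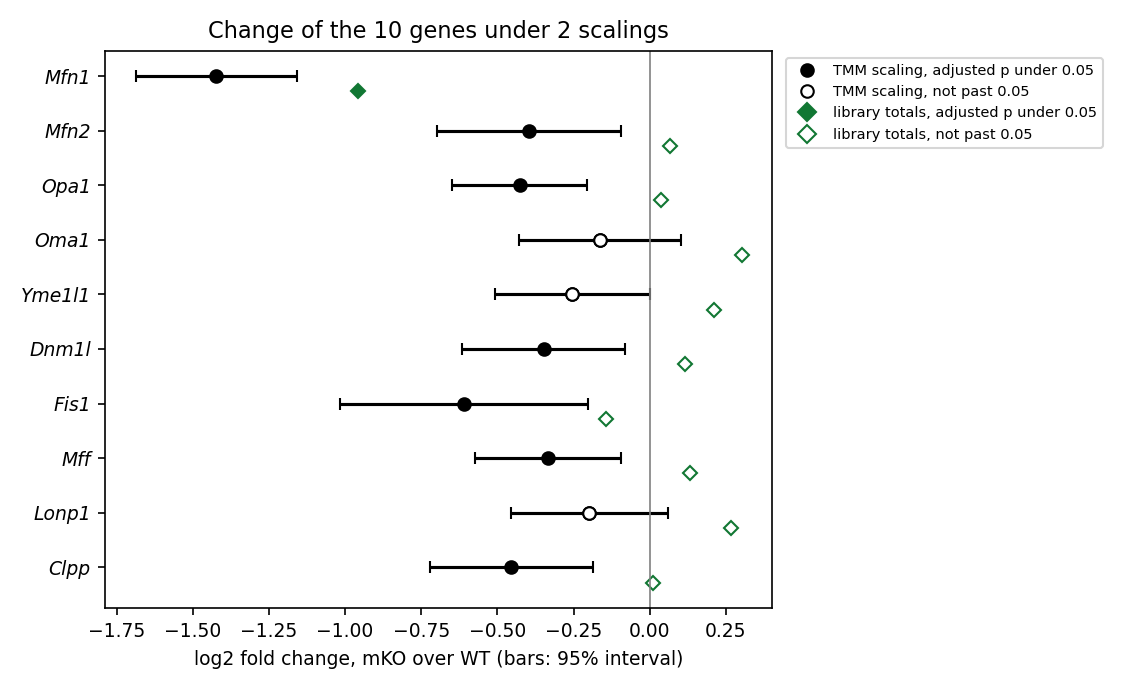
Log2 fold change of mKO over WT (horizontal axis) for the 10 genes. Circles with bars are the values with TMM scaling and their 95% intervals, diamonds the values with library totals, and filled symbols passed an adjusted p of 0.05. With library totals 8 genes turn to values above 0, Fis1 stays below 0 without passing, and Mfn1 passes under both scalings.

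Among the genes of inner-membrane fusion, Opa1 was lower and the proteases that cut it did not pass the test. Opa1 had 227, 212 and 229 CPM in WT and 163, 166 and 168 CPM in mKO libraries (replicates 1 to 3 of each), with no overlap. Its log2 change was -0.43 (SE 0.10, edgeR adjusted p = 0.00559), between -0.46 and -0.41 with any 1 library left out, and 0.04 with library totals (adjusted p = 0.768).

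Oma1 had 30.8, 38.7 and 29.3 CPM in WT and 30.6, 28.2 and 29.4 CPM in mKO libraries. WT replicate 2 stood above the other 5 libraries. Its log2 change was -0.16 (95% interval -0.43 to 0.10, edgeR adjusted p = 0.322) and 0.30 with library totals (adjusted p = 0.0541).

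Yme1l1, whose product cuts Opa1 constitutively, had 169, 153 and 196 CPM in WT and 138, 148 and 148 CPM in mKO libraries. The groups did not overlap, though WT replicate 2 lay close to the highest mKO value. Yme1l1 had a log2 change of -0.25 (95% interval -0.51 to 0.000139, edgeR adjusted p = 0.109), which passed the test without WT replicate 2 (adjusted p = 0.0301), and was 0.21 with library totals (adjusted p = 0.138). Intervals of this width allow Oma1 to be up to 1.35-fold and Yme1l1 up to 1.42-fold lower in mKO muscle.

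The fission genes were lower with TMM scaling and did not pass with library totals. Dnm1l, the fission GTPase, had 100.4, 128 and 129 CPM in WT and 86.9, 96.8 and 97.1 CPM in mKO libraries. WT replicate 1 was the lowest WT library and lay just above the mKO range. Dnm1l had a log2 change of -0.35 (SE 0.12, edgeR adjusted p = 0.0415) and 0.12 with library totals (adjusted p = 0.420). It no longer passed on leaving out WT replicate 2 (adjusted p = 0.0848), WT replicate 3 (0.133), mKO replicate 1 (0.129), mKO replicate 2 (0.0685) or mKO replicate 3 (0.0894), and with upper-quartile scaling (0.0831).

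Fis1 was the most variable of the 10 genes among WT libraries. There were 32.1, 16.6 and 24.4 CPM in WT replicates 1 to 3 and 16.4, 15.2 and 16.3 CPM in mKO replicates 1 to 3. WT replicate 2 lay next to the mKO values, WT replicate 1 far above them. Its log2 change was -0.61 (SE 0.19, edgeR adjusted p = 0.0223) and -0.15 with library totals (adjusted p = 0.530). It was -0.37 without WT replicate 1 (adjusted p = 0.106) and -0.83 without WT replicate 2 (0.000562), and the call also ended without WT replicate 3 (0.0574), mKO replicate 1 (0.0539), mKO replicate 2 (0.0687) or mKO replicate 3 (0.0584).

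Mff, the receptor that recruits Dnm1l, had 142, 138 and 162 CPM in WT and 123, 112 and 115 CPM in mKO libraries, with no overlap. Mff had a log2 change of -0.33 (SE 0.11, edgeR adjusted p = 0.0310) and 0.13 with library totals (adjusted p = 0.327). It no longer passed on leaving out WT replicate 3 (adjusted p = 0.111), mKO replicate 2 (0.0970) or mKO replicate 3 (0.110), and with upper-quartile scaling (0.0690).

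Of the matrix proteases, Clpp was lower and Lonp1 did not pass the test. Clpp, the peptidase of the ClpXP protease, had 20.98, 20.5 and 17.9 CPM in WT and 15.8, 13.9 and 13.6 CPM in mKO libraries, with no overlap. The log2 change was -0.45 (SE 0.12, edgeR adjusted p = 0.0119), lost without mKO replicate 3 (adjusted p = 0.0693), and 0.01 with library totals (adjusted p = 0.942).

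Lonp1, an ATP-dependent protease of the matrix, had 69.3, 87.4 and 68.4 CPM in WT and 64.9, 66.1 and 65.2 CPM in mKO libraries. All mKO libraries lay below all WT libraries, by a small margin for WT replicates 1 and 3. The log2 change was -0.20 (95% interval -0.46 to 0.06, edgeR adjusted p = 0.215) and 0.27 with library totals (adjusted p = 0.0736). The interval allows Lonp1 to be up to 1.37-fold lower in mKO muscle. With library totals Oma1, Yme1l1 and Lonp1 were each higher in all mKO than in all WT libraries, where 54.8% of all genes were.

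The ratio of 2 genes within a library does not depend on how libraries are scaled, and by this measure the order of the mitofusins differed between the groups. Per count of Mfn1 there were 0.735, 0.576 and 0.502 counts of Mfn2 in WT replicates 1 to 3, and 1.21, 1.31 and 1.15 in mKO replicates 1 to 3. Mfn1 had more counts than Mfn2 in every WT library and fewer in every mKO library. The log2 ratio was -0.74 ± 0.28 in WT and 0.29 ± 0.09 in mKO libraries (SD, n = 3), 2.05-fold higher, with an exact two-sided permutation p = 0.1, the smallest that 3 against 3 libraries can give (0.5 adjusted over the 5 ratios compared).

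The other ratios overlapped between groups. The log2 ratio of Opa1 to Dnm1l, a fusion and a fission GTPase, was 0.91 ± 0.23 in WT and 0.82 ± 0.07 in mKO libraries (SD, n = 3; exact permutation p = 0.8, adjusted 0.8). That of Oma1 to Yme1l1 was -2.39 ± 0.38 against -2.30 ± 0.11 (exact permutation p = 0.7, adjusted 0.8), and that of Fis1 to Mff -2.64 ± 0.46 against -2.87 ± 0.04 (exact permutation p = 0.6, adjusted 0.8). Lonp1 to Clpp was 1.92 ± 0.19 in WT and 2.18 ± 0.12 in mKO libraries (exact permutation p = 0.2, adjusted 0.5). Singled out after its value was seen, Mfn1 was also set against each of the other 9 genes. Its ratio to each was lower in all mKO than in all WT libraries, by 1.81-fold against Fis1 to 2.40-fold against Oma1. Mfn1 had the largest fall of the genes compared, so lower mean ratios follow from that choice and add no separate evidence. How often ratios of other gene pairs separate in this way was not counted.

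**Figure D3:**
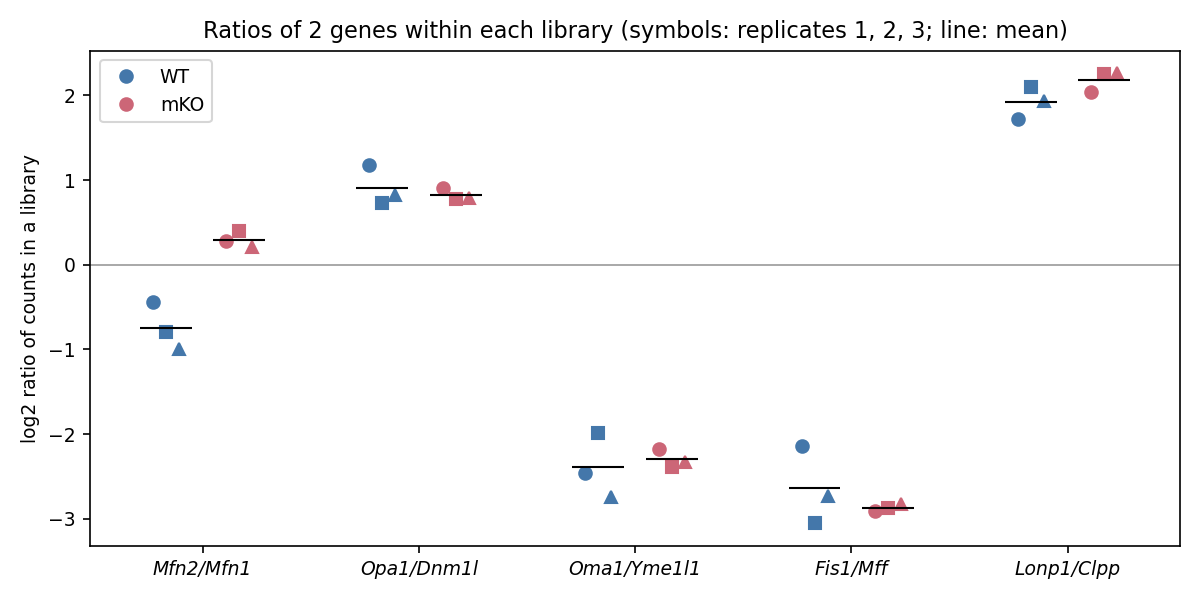
Log2 ratio of counts of 2 genes in the same library (vertical axis) for 5 pairs in WT and mKO libraries. Symbols are replicates 1, 2 and 3, and lines are group means. The groups separate for Mfn2/Mfn1, with WT from -0.99 to -0.44 and mKO from 0.21 to 0.39, and overlap for the other 4 pairs.

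Set against 12 genes of general mitochondrial content (such as Cs, Vdac1, Tomm20 and Tfam), 9 of the 10 genes overlapped between groups. The measure is the log2 CPM of a gene minus the mean log2 CPM of the 12 genes in the same library. For Mfn1 it was 0.15 ± 0.22 in WT and -0.83 ± 0.12 in mKO libraries (SD, n = 3), 1.97-fold lower, with exact two-sided permutation p = 0.1, the smallest possible. For the other 9 genes the differences ran from -0.13 (Fis1) to 0.28 (Oma1), with Opa1 at 0.01 and Mfn2 at 0.06. None of the 10 genes was higher in all mKO than in all WT libraries by this measure, against 51.0% of all genes tested, and 1 was lower, against 8.75%. The 12 genes were themselves lower with TMM scaling (median log2 change -0.38), which moves all genes up by this measure. Mitochondrial content itself was not measured.

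Levels of different genes were compared per exon length (RPKM, from TMM-scaled library sizes). In WT muscle Mfn1 stood first at 34.9 ± 4.80 RPKM (SD, n = 3), and its libraries lay above those of the next gene, Dnm1l (29.0 ± 3.96). Opa1 (28.3), Lonp1 (25.3), Mfn2 (24.7) and Yme1l1 (21.6) followed with overlapping neighbours. After a gap Clpp (16.4), Oma1 (15.4), Mff (15.1) and Fis1 (14.2) again overlapped. In mKO muscle Mfn1 stood seventh at 13 ± 0.566 RPKM, between Oma1 (13.7) and Mff (12.0) and overlapping with both. Dnm1l (22.8), Lonp1 (22.1), Opa1 (21.03) and Mfn2 (18.8) were then the highest, and Fis1 (9.32) the lowest. Exon lengths sum all annotated exons of a gene, so these levels depend on the annotation.

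**Figure D4:**
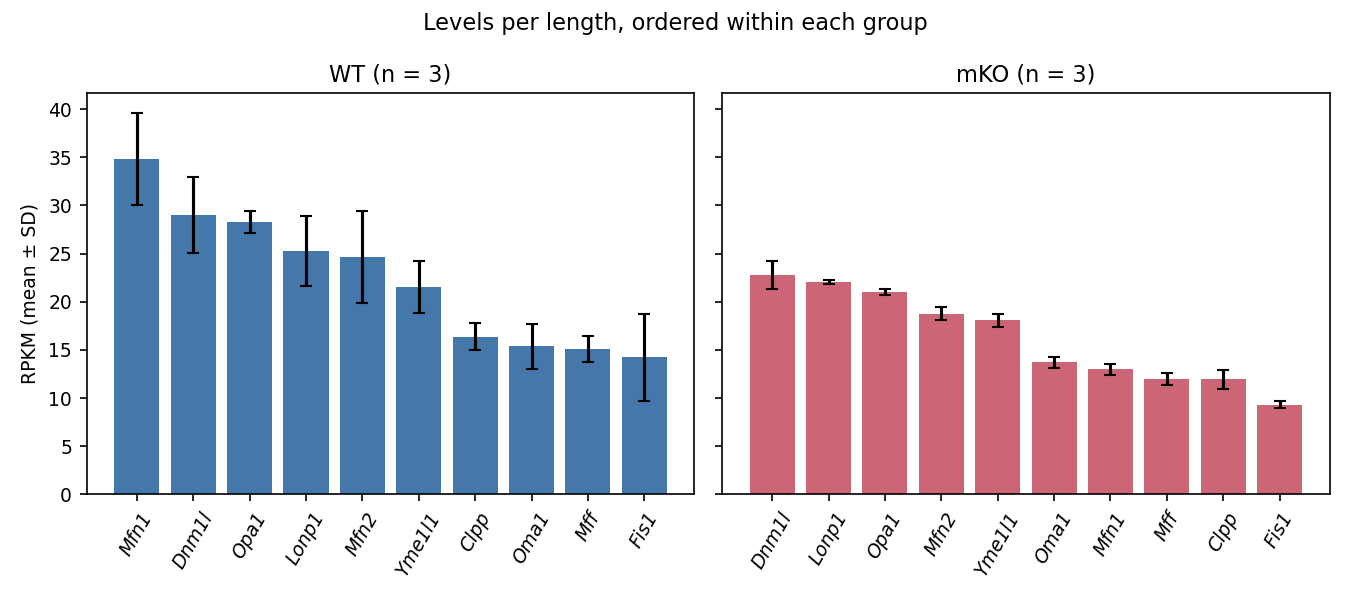
RPKM (vertical axis, mean ± SD of 3 libraries) of the 10 genes, ordered from high to low within WT and within mKO muscle. Mfn1 is first in WT at 34.9 RPKM and seventh in mKO at 13 RPKM.

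Other genes of the same processes were taken from 9 lists of 90 genes, 87 of them tested. With TMM scaling 39 were lower and 7 higher, where 18.9% of all genes were lower and 18.2% higher, and the median log2 change was -0.31. With library totals 10 were lower and 29 higher, where 6.75% of all genes were lower and 49.0% higher, so the 29 of 87 higher lie below the share of all genes. The median was then 0.16 against 0.49 over all genes. Counts of single lists are to be read against these same shares. Pld6, Gdap1l1 and Mtfr2 had at most 11 counts in any library and were not tested.

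Among 14 tested fission factors 5 were lower and 2 higher (1 and 8 with library totals). The 2 higher, and the 8 higher with library totals, are near the 18.2% and 49.0% of all genes. Gdap1, an outer-membrane protein linked to fission and to a hereditary neuropathy, fell from 53.4 ± 17.3 to 15.2 ± 3.48 CPM (SD, n = 3; log2 -1.82, edgeR adjusted p = 4.12e-05), and also fell with library totals (log2 -1.35). Mief1 and Mief2 encode adaptors of Dnm1l. Mief1 rose from 14.1 to 20.2 CPM (log2 0.52, adjusted p = 0.00309; 0.99 with library totals), while Mief2, named after its value was seen, fell from 78.6 to 50.5 CPM (log2 -0.64, adjusted p = 0.00628; -0.17 and not passing with library totals). Mtfp1 (log2 -0.63) and Mtfr1l (log2 -0.49) fell, but were -0.16 and -0.03 with library totals, without passing. Among 7 tested fusion regulators 2 were lower and none higher (0 and 4 with library totals). Slc25a46 fell (log2 -0.54; -0.08 with library totals, not passing), as did the ubiquitin ligase gene Marchf5 (log2 -0.37; 0.10 with library totals), while Usp30 (log2 0.44, adjusted p = 0.0687) and Miga1 (log2 0.31, adjusted p = 0.115) did not pass, but did with library totals (0.90 and 0.78). The call of Marchf5 (adjusted p = 0.0258) ended without WT replicate 3 (0.108), mKO replicate 2 (0.0543) or mKO replicate 3 (0.118) and with upper-quartile scaling (0.0551), and Usp30 passed without WT replicate 2 (0.0259) and with upper-quartile scaling (0.0413).

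Inner-membrane proteases and their scaffolds were lower in 7 of 11 genes and higher in none (4 and 3 with library totals). Afg3l1 and Spg7 encode subunits of the m-AAA protease, the matrix-facing counterpart of Yme1l1. Afg3l1 fell from 24.8 ± 0.980 to 10.2 ± 0.784 CPM (SD, n = 3; log2 -1.29, edgeR adjusted p = 6.37e-06; -0.82 with library totals), and Spg7 from 44.2 to 25.6 CPM (log2 -0.79; -0.32 with library totals, adjusted p = 0.0470). Their partner Afg3l2 had 69.3 and 64.1 CPM (log2 -0.11, adjusted p = 0.468) and 0.35 with library totals (adjusted p = 0.0210). Immp1l and Immp2l, the inner-membrane signal peptidases, fell under both scalings (log2 -0.98 and -1.38; -0.51 and -0.91 with library totals). Of 6 matrix proteases and peptidases 3 were lower and 1 higher (0 and 2 with library totals). Xpnpep3 rose from 8.66 to 16.7 CPM (log2 0.95; 1.42 with library totals). The intermediate peptidase gene Mipep fell (log2 -0.69; -0.22 and not passing with library totals), and Pmpca and Pmpcb of the processing peptidase had log2 changes of -0.37 each, and 0.10 each with library totals. Clpx, the unfoldase partner of Clpp, had 103 and 87.0 CPM (log2 -0.25, adjusted p = 0.0932; 0.22 with library totals) and passed without WT replicate 2 (0.0484). The call of Pmpca (adjusted p = 0.0348) ended without WT replicate 2 (0.0940), mKO replicate 1 (0.0803), mKO replicate 2 (0.0703) or mKO replicate 3 (0.116) and with upper-quartile scaling (0.0728), and that of Pmpcb (0.0172) without mKO replicate 2 (0.0710) or mKO replicate 3 (0.0685).

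Cristae and mitophagy genes were mostly lower with TMM scaling. Of 11 cristae organisers 8 were lower and none higher (2 and 0 with library totals). Chchd3, a subunit of the MICOS complex that works with Opa1 at cristae junctions, fell from 670 ± 37.4 to 287 ± 30.8 CPM (SD, n = 3; log2 -1.23, edgeR adjusted p = 8.26e-06), and Samm50, its outer-membrane partner, from 170 to 84.9 CPM (log2 -1.002). Both also fell with library totals (log2 -0.76 and -0.54), while Apoo and Apool (log2 -0.71 and -0.57) were -0.24 and -0.10 without passing. Of 8 mitophagy genes 6 were lower (0 with library totals). Pink1, the kinase that marks damaged mitochondria, fell from 486 to 348 CPM (log2 -0.48, adjusted p = 0.00294; -0.02 with library totals, adjusted p = 0.897). Fundc2 fell (log2 -0.75; -0.28 with library totals, adjusted p = 0.0683), and Fkbp8 had a log2 change of -0.38 (0.08 with library totals), a call (adjusted p = 0.0134) that ended without WT replicate 1 (0.0539) or mKO replicate 3 (0.0762).

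Mitochondrial chaperones were lower in 2 of 9 genes and higher in none (1 and 2 with library totals). The 2 lower are near the 18.9% of all genes, and the 2 higher with library totals are below the 49.0% of all genes. Trap1, a mitochondrial Hsp90, fell from 193 to 111 CPM (log2 -0.80, edgeR adjusted p = 0.000143; -0.34 with library totals, adjusted p = 0.0230), and Grpel2 had a log2 change of -0.42 (0.04 with library totals). Hspd1, the matrix chaperonin, had 257 ± 32.6 and 204 ± 24.7 CPM (SD, n = 3; log2 -0.33, adjusted p = 0.0629) and 0.13 with library totals. It passed without WT replicate 1 (0.0300) or mKO replicate 1 (0.0487), with DESeq2 (0.0382) and with no filter on low counts (0.0396). Dnaja3 (log2 -0.36, adjusted p = 0.0941; 0.11 with library totals) passed without WT replicate 1 (0.0265) and with no filter (0.0263). In the stress relay, Oma1 cleaves Dele1, which then activates the kinase Eif2ak1 and so the integrated stress response. Of its 9 listed genes 3 were higher and none lower (8 and 0 with library totals). Atf4 rose from 115 to 185 CPM (log2 0.69, adjusted p = 0.000289; 1.16 with library totals) and Atf5 from 11.4 to 27.0 CPM (log2 1.25; 1.72 with library totals). Dele1 had 21.8 and 17.8 CPM (log2 -0.29, adjusted p = 0.109; 0.17 with library totals) and passed without WT replicate 3 (0.0477). Eif2s1, the factor these kinases phosphorylate, had a log2 change of 0.32 (adjusted p = 0.0349; 0.79 with library totals), lost without WT replicate 1 (0.0903), WT replicate 2 (0.0661), WT replicate 3 (0.0547), mKO replicate 1 (0.111) or mKO replicate 3 (0.116), and with no filter (0.0511).

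**Figure D5:**
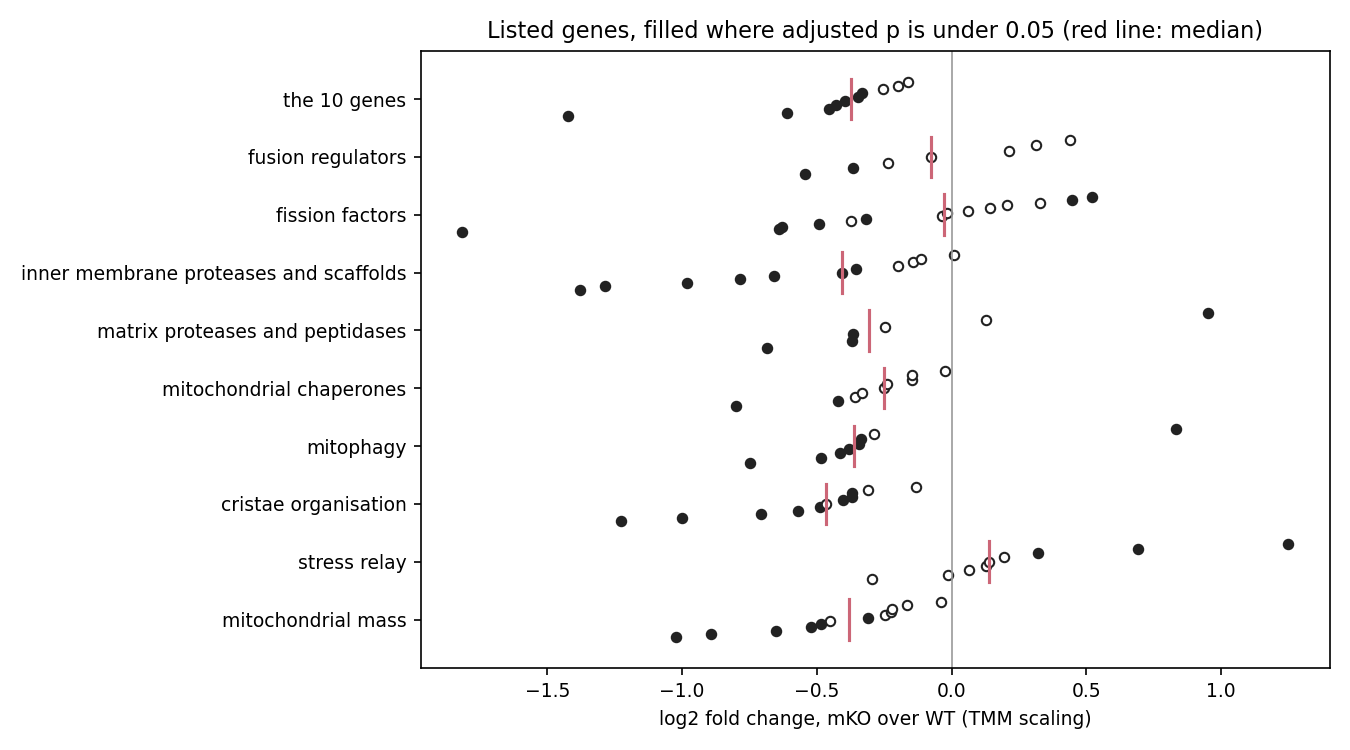
Log2 fold change of mKO over WT with TMM scaling (horizontal axis) for the 10 genes and for each of 9 lists of related genes. Each circle is a gene, filled where the adjusted p is under 0.05, and the red line is the median. Gdap1 at -1.82 lies furthest left and Atf5 at 1.25 furthest right. With library totals the medians of all sets but the cristae organisers lie above 0, that of the 10 genes at 0.09.

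The 12 genes of mitochondrial content were themselves lower in 6 cases and higher in none (2 and 1 with library totals), with a median log2 change of -0.38, close to the -0.37 of the 10 genes. Slc25a4, the adenine nucleotide carrier of muscle, and Timm23 of the import machinery fell under both scalings (log2 -1.02 and -0.89; -0.56 and -0.43 with library totals). Vdac1 (log2 -0.65) and Tomm20 (log2 -0.52) fell, but were -0.19 and -0.05 with library totals, without passing.

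Markers of other cell types of the muscle were measured in the same libraries. Of all genes tested, 18.2% were higher and 18.9% lower (49.0% and 6.75% with library totals), and the marker counts are to be read against these shares. Macrophage markers were higher in 5 of 5 genes, with summed levels of 161 to 206 CPM in WT and 380 to 663 CPM in mKO libraries. Endothelial markers were lower in 5 of 5, with 210 to 285 against 137 to 148 CPM (1 of 5 with library totals). Myofibre markers, which define the labelled tissue, summed to 228484 to 239500 CPM in WT and 156888 to 187659 CPM in mKO libraries (4 lower and 1 higher of 6, and 2 and 1 with library totals). Satellite cell markers (20.5 to 30.1 against 25.3 to 28.0 CPM) overlapped in their sums. So did fibro-adipogenic progenitor markers (1080 to 1287 against 1139 to 1167 CPM, with 1 of 5 higher, and 4 of 5 with library totals). Sums also overlapped for smooth muscle (98.6 to 126.5 against 100.9 to 114 CPM), Schwann cell (20.4 to 29.7 against 9.61 to 40.7 CPM) and adipocyte markers (11.7 to 29.0 against 10.1 to 24.7 CPM). Of 5 satellite cell markers 1 was higher and 1 lower (2 and 0 with library totals). Of 5 smooth muscle markers 1 was higher and 1 lower (1 and 0 with library totals). No Schwann cell or adipocyte marker passed under either scaling. Every marker had counts in some library. Fewer cells of a type and less RNA per cell cannot be told apart in bulk tissue, and the part of these markers' cell types in the results on the 10 genes was not tested.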

How the data were processed

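RNA was sequenced from 6 gastrocnemius libraries. Raw counts per Ensembl gene were deposited by the authors, 1 table per library. Trimmomatic 0.36, STAR 2.5.2b and featureCounts (Subread 1.5.2) on GRCm38 are named in the submitters' processing notes. How strand and multiply mapped reads were handled is not stated there. The length column of the deposited tables, per the file headers, served for RPKM.

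Groups were compared with edgeR 4.0.16 (R 4.3.3), using TMM factors, filterByExpr, which left 16650 genes, and glmQLFTest. Its p-values, adjusted over those genes by Benjamini-Hochberg and called under 0.05, are the adjusted p printed for the main fit. Alternative edgeR fits were adjusted in the same way over the genes that each kept. DESeq2 values are printed only where it is named. The SE is the absolute log2 change divided by the square root of the test's F statistic, and intervals at 95% are from this SE. Depth was 32108684 to 42344238 counts per library, and replicates differed beyond sampling noise (chi-square per degree of freedom 20.9 to 57.7). On simulated data with 200 changed genes among 15572, the comparison recovered 88% of 2-fold and 27% of 1.5-fold changes, with 1 false call among 116. The simulation gave all genes the same dispersion and changed few of them, while 37.0% of the real genes passed. Its shares need not hold for the real comparison.

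The 10 genes and all lists were chosen with earlier results of these data known. The text names the 10 genes, Hnrnpu, up to 4 genes of each list by lowest p, and Dele1, Clpx and Afg3l2. Mief2, Eif2ak1 and Ddit3 were added after their values were seen. The result for 1 gene of these lists is not reported here. Within-library ratios used exact permutation tests over libraries. Symbols came from the gene identifiers; 3 listed genes were matched by an older symbol. Promoter windows are from RefSeq (GRCm38.p6), and all 10 genes matched.

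Alternatives were DESeq2 1.42.0, limma-voom (limma 3.58.1), other scaling factors, filters and thresholds, robust dispersion, a fit without mitochondrial and the 10 most abundant genes, the replicate number as a block, and leaving out each library.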

Additional observations from a re-analysis of the deposited data

How the results depend on the processing

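Of the 10 genes, Mfn1 passed as lower under each of the 16 alternative fits and both other thresholds, and no gene passed as higher under any. The number of genes lower was 4 with upper-quartile factors, 1 with library totals and 2 at an adjusted p of 0.01, in place of 7, and 2 to 6 when each library was left out in turn. All genes called numbered 6166, but 9283 with library totals and 3973 at 0.01, and 4766 to 6255 without each library. Of the listed related genes 39 were lower and 7 higher, but 10 and 29 with library totals, 24 lower at 0.01, and 26 to 37 lower and 5 to 7 higher without each library. With library totals the log2 change turned for Mfn2 (0.068), Opa1 (0.038), Oma1 (0.30), Yme1l1 (0.21), Dnm1l (0.12), Mff (0.13), Lonp1 (0.27), Clpp (0.0125), Marchf5 (0.10), Afg3l2 (0.35), Clpx (0.22), Pmpca (0.10), Pmpcb (0.10), Hspd1 (0.13), Dnaja3 (0.11), Grpel2 (0.0443), Fkbp8 (0.083), Dele1 (0.17) and Hnrnpu (0.27). The construction of that setting, which leaves out the TMM factors, moves all genes up together. Without each library in turn the log2 change of the ratio Mfn2/Mfn1 was 0.91 to 1.19, of Lonp1/Clpp 0.17 to 0.35, of Opa1/Dnm1l -0.18 to 0.0456 (turned without WT replicate 1), of Oma1/Yme1l1 -0.0798 (without WT replicate 3) to 0.30 and of Fis1/Mff -0.43 to 0.0193 (without WT replicate 1). The number of genes above the mitochondrial content genes was 0, but 2 with the median of that list and 0 to 5 without each library. Leaving out a library can only keep or raise this number, because fewer values then have to lie apart. Why the median of the list gave 2 was not tested. Same-numbered WT and mKO libraries did not deviate together over all genes tested (correlations -0.00202 to 0.0224, against -0.0577 to 0.0347 for other pairs). A pairing by number that touches few genes would not show in these correlations. With the replicate block 5 of the 10 genes were lower, Mfn2 (adjusted p = 0.0592) and Mff (0.0554) no longer passing, and the calls of the related genes Marchf5 (0.0560), Pmpca (0.0516) and Eif2s1 (0.0547) ended. The block changed no other call of a named gene, with Eif2ak1 and Ddit3 left out of this check. In the simulation, with 200 changed genes among 15572, 27% of 1.5-fold changes were recovered. In these data 6166 of 16650 genes passed, so that share need not hold here. Most changes of the 10 genes were smaller than 1.5-fold.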

Other observations

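The 10 genes varied less between mKO libraries than between WT libraries. The coefficient of variation of TMM-scaled CPM over 3 libraries was larger in WT for 10 of 10 genes, with a median of 13.7% in WT and 4.03% in mKO. Over all genes tested it was larger in WT for 60.5% of genes, with medians of 15.1% and 12.3%, and over the 6016 genes with a mean of at least 15 CPM for 61.9%, with medians of 10.04% and 7.62%. The WT spread was 31.6% for Fis1 and 19.4% for Mfn2, and the mKO spread of the same genes 3.97% and 3.48%. Lonp1 showed 14.3% in WT against 1.014% in mKO, and Clpp 8.34% against 8.12%. Among WT libraries, replicate 2 was the highest for Mfn1, Oma1 and Lonp1 but the lowest for Opa1, Yme1l1, Fis1 and Mff. Replicate 1 was the lowest for Mfn1 and Dnm1l, and replicate 3 for Mfn2, Oma1, Lonp1 and Clpp. The pattern was noticed in these values, rests on 3 libraries a group, and was not tested.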
